A study of Homo sapiens with 27 samples.

Results

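Retinal ganglion cell fate genes are described here across 27 bulk RNA-seq libraries of the human embryonic stem cell line H1. They are the 9 genes ATOH7, POU4F1, POU4F2, ISL1, ISL2, EBF1, EBF3, RBPMS and SNCG, of 44852 genes in the deposited tables, and each was found by the Ensembl identifier that carries its symbol. The rule is a list of names, drawn up with earlier results of these data known. The cells had been cultured on 3 laminin matrices, named here by their leading isoform as LN523, LN323 and LN521, and collected at days 2, 22 and 32 with 3 libraries per matrix and day. The sample titles number these days 0, 20 and 30, while the sample characteristics and the deposited tables give 2, 22 and 32. The sample labels give LN323 alone, LN521 with LN323, and LN523 with LN323. The methods of the study instead give LN521 alone, LN323 with LN521, and LN523 with LN521, so the exact composition of each matrix could not be settled. Day 2 cells were undifferentiated. All groups were then given neural induction medium with CKI-7 and SB431542, followed by a photoreceptor differentiation medium with BDNF, CNTF, retinoic acid and DAPT, and the cells of days 22 and 32 are labelled as photoreceptor progenitors. The cells were not sorted, a single cell line was used, and no source says whether the 3 libraries of a group were separate cultures, so that p-values measure the spread between these libraries, which may be technical.

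Retinal ganglion cells are the output neurons of the retina, whose axons form the optic nerve, and they are the earliest neurons to be born there. The basic helix-loop-helix factor ATOH7 is switched on in progenitors as they leave the cell cycle and is needed for the ganglion cell fate. The POU-domain factor POU4F2 and the LIM-homeodomain factor ISL1 act after it in ganglion cell differentiation, whereas POU4F1, ISL2, EBF1, EBF3, RBPMS and SNCG mark later ganglion cells or subtypes of them. Notch signalling holds retinal progenitors back from this step, and DAPT blocks the protease that releases active Notch.

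The 250 bases before the annotated start of ATOH7, POU4F2 and POU4F1 are shown because ATOH7 and POU4F2 were the members that rose together in the last culture step, while POU4F1, the close relative of POU4F2, did not pass the test there. The sequences are RefSeq promoters of GRCh38.p14, written 5′ to 3′ on the strand of the gene, and the capitals mark E-boxes, a class of site that basic helix-loop-helix factors bind. The E-boxes searched, on both strands, were the hexamer CAGCTG, the hexamer CAGATG and, lastly, the hexamer CACCTG. The ATOH7 window is chr10:68232114-68232363 on the minus strand, the POU4F2 window is chr4:146638643-146638892 on the plus strand, and the POU4F1 window is chr13:78603553-78603802 on the minus strand.
ATOH7: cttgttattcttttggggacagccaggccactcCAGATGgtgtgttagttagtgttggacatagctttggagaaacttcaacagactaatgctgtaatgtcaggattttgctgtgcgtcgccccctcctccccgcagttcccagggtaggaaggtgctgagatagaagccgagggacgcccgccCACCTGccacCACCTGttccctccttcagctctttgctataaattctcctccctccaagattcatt
POU4F2: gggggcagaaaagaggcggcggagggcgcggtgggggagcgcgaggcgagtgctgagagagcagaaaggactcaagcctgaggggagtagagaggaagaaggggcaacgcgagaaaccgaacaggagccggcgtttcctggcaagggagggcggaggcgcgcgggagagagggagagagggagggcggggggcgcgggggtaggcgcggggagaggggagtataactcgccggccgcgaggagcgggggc
POU4F1: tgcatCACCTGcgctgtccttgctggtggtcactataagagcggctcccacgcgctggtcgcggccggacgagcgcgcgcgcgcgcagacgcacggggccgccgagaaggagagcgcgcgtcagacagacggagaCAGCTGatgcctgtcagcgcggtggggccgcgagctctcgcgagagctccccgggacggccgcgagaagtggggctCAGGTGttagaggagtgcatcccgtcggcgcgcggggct

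The ATOH7 window held CAGATG at 217 bases and CACCTG at 66 and 56 bases before the start. POU4F1 held 3 E-boxes as well, at 245, 115 and 39 bases, and POU4F2 held 0. Of 35116 promoter windows of this length, 37.0% held at least 1 of the 3 hexamers. The windows of ISL1 and EBF1 held 1 E-box each, each of the 2 annotated starts of SNCG held 1, and those of ISL2 and EBF3 held 0. The window of RBPMS is not reported here. A homeobox hexamer, TAATTA, was found in the EBF1 window, at 152 bases, and 4.3% of all windows held it. A match is a description of these letters and was not tested as a site.

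The genes lie on GRCh38 at chr10:68230595-68232113 (ATOH7, minus strand), chr4:146638893-146642474 (POU4F2, plus), chr13:78598362-78603552 (POU4F1, minus), chr5:51383448-51394730 (ISL1, plus), chr15:76336773-76342475 (ISL2, plus), chr5:158695920-159099916 (EBF1, minus), chr10:129835233-129973053 (EBF3, minus), chr8:30384511-30572256 (RBPMS, plus) and chr10:86958599-86963258 (SNCG, plus). All 9 are protein-coding. Of the exonic bases of POU4F1, 27.7% are shared with a gene on the opposite strand, and the share is 17.9% for ISL2, 5.5% for EBF3 and 3.0% for RBPMS. The strand setting of the counting was not given in the sources used here, so reads of these partners may be included.

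Total counts per library ranged from 25620624 to 47340990 (median 39862487). The 7 pluripotency markers summed to between 9664 and 11150 TPM, the length-scaled level whose values sum to 1000000 in a library, in the day 2 libraries and to between 114 and 758 TPM later, and the photoreceptor precursor gene CRX, whose product is the cone-rod homeobox factor, was at most 0.27 TPM at day 2 and from 1.00 to 23.8 TPM at days 22 and 32. The LN521 replicate 1 libraries of days 22 and 32 stood apart. They held the proneural factor NEUROG1 at 15.5 and 11.3 TPM, against at most 2.38 TPM in any other library, and the pluripotency factor POU5F1 at 108 and 22.0 TPM, against at most 3.49 TPM in the other libraries of these days. Values without 1 of these libraries are given beside many of the results on LN521. In bulk libraries, fewer cells of a type and less RNA per cell cannot be told apart.

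ATOH7 reached the highest level of the 9 members, 607 TPM in 1 library of day 32, and was above 100 TPM in 8 of the 9 libraries of that day. At day 2 its 9 libraries lay between 0.492 and 2.37 TPM with a median of 1.51 TPM. At day 22, replicates 1, 2 and 3 had 3.16, 30.7 and 8.19 TPM on LN523, 4.47, 47.6 and 33.7 TPM on LN323, and 1.43, 3.06 and 3.81 TPM on LN521. At day 32 they had 607, 269 and 275 TPM on LN523, 120, 191 and 113 TPM on LN323, and 321, 24.6 and 128 TPM on LN521. The day 22 and day 32 libraries did not overlap within any matrix, and the libraries of LN523 and LN323 at day 22 spread over 9.73-fold and 10.6-fold, with replicate 1 the lowest in both.

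From day 22 to day 32, ATOH7 rose by a log2 fold change of 4.96 ± 0.66 (SE, 3 libraries per group) on LN523 (adjusted p = 1.2e-05, from the quasi-likelihood test of edgeR) and by 5.88 ± 0.70 on LN521 (adjusted p = 9.3e-07), higher in 3 of 3 lanes on both. On LN323 the difference was 2.29 ± 0.58, also in 3 of 3 lanes, and did not pass (adjusted p = 0.19). The LN323 value depended on the fit. It passed when only the 6 LN323 libraries of these days were fitted (log2 fold change 2.65, adjusted p = 9.1e-21) and in none of the other alternatives run. The steps within lanes 1, 2 and 3 on LN323 were 4.72, 1.98 and 1.70 on the log2 scale. So small a p does not convey this spread, which 6 libraries with group and lane terms can estimate only poorly. The LN523 call was lost when low-count genes were removed with filterByExpr (log2 fold change 4.95, adjusted p = 0.072) and in limma on log2(TPM + 0.1) (5.24, adjusted p = 0.060). From day 2 to day 22, ATOH7 had already risen by 3.27 ± 0.68 on LN523 (adjusted p = 0.00017) and by 3.85 ± 0.67 on LN323 (adjusted p = 7.0e-06), while on LN521 the difference was 0.76 ± 0.66 (adjusted p = 0.56). Without LN521 day 32 replicate 1, the later rise on LN521 was 4.71 (adjusted p = 6.3e-05).

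**Figure D1:**
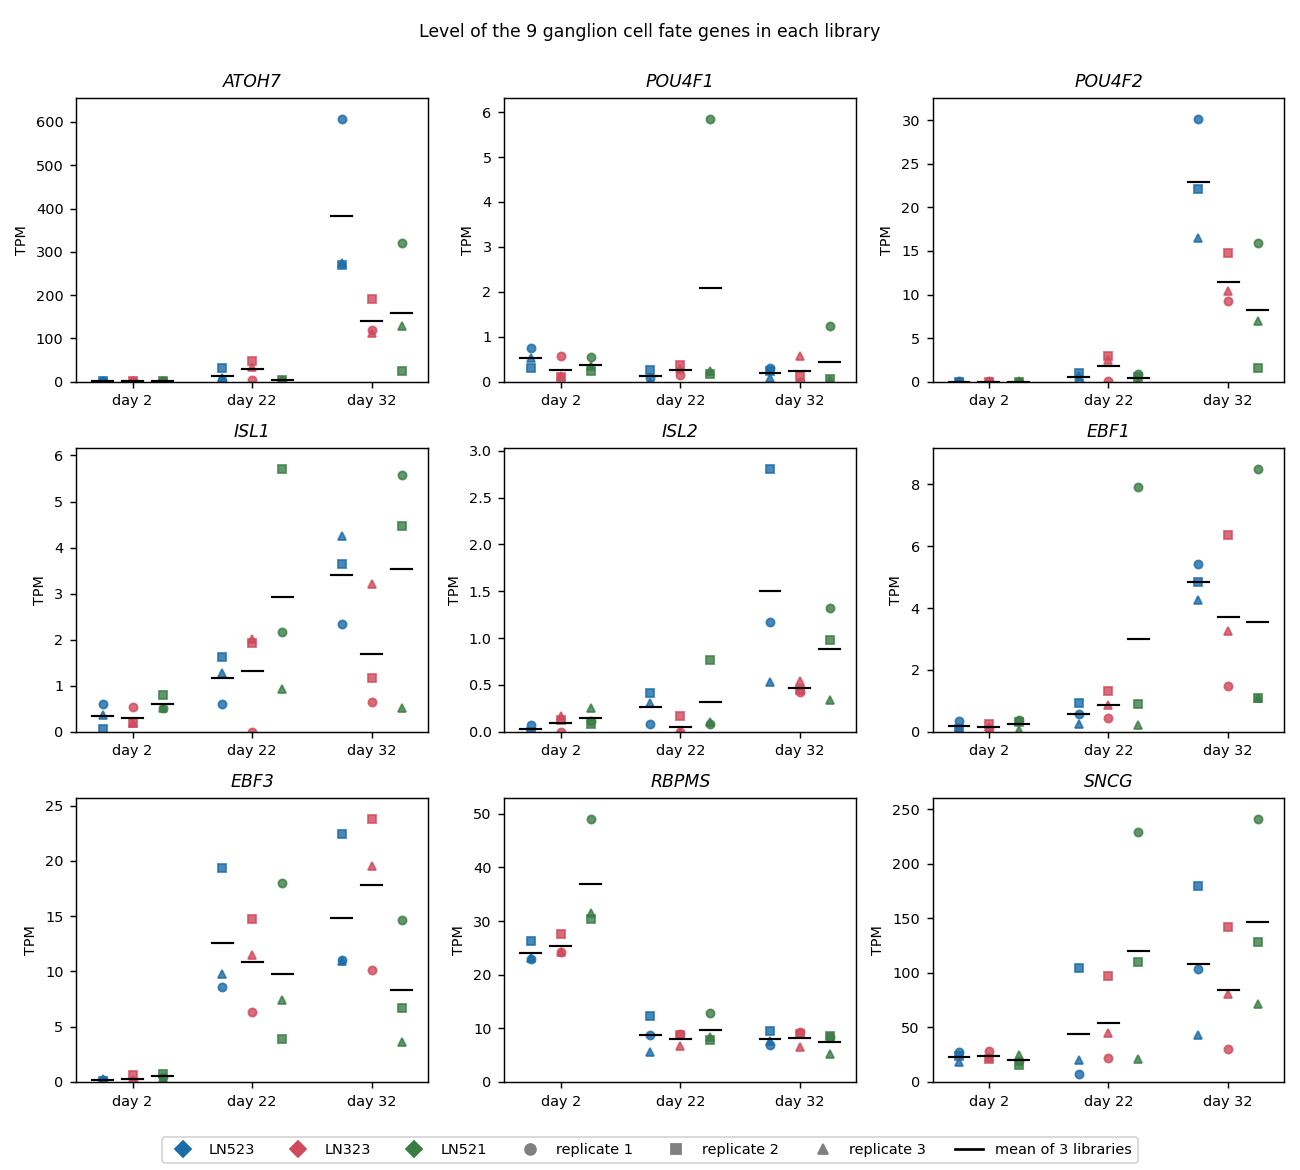
Level of each of the 9 genes in TPM (vertical axis, a linear scale of its own in each panel) in each library, grouped by day, with colours for the matrix, symbols for the replicate and a black line at the mean of the 3 libraries. ATOH7 and POU4F2 reach 607 and 30.1 TPM at day 32 from at most 47.6 and 2.92 TPM at day 22, RBPMS is highest at day 2, and POU4F1 is above 1 TPM only in 2 LN521 replicate 1 libraries.

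POU4F2, which commits cells to the ganglion cell programme after ATOH7, was all but undetected at day 2 and was at its highest at day 32 on LN523. Each matrix had 2 counts over its 3 libraries at day 2. At day 22, replicates 1, 2 and 3 had 0, 0.97 and 0.65 TPM on LN523, 0.10, 2.92 and 2.51 TPM on LN323, and 0.89, 0.54 and 0 TPM on LN521. At day 32 they had 30.1, 22.1 and 16.5 TPM on LN523, 9.27, 14.7 and 10.5 TPM on LN323, and 16.0, 1.53 and 7.02 TPM on LN521. The 3 LN523 libraries of day 32 were above all other libraries of the series, and in each matrix the day 32 libraries were above those of day 22.

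From day 22 to day 32, POU4F2 rose by a log2 fold change of 5.44 ± 0.89 on LN523 (edgeR adjusted p = 0.00031) and by 4.11 ± 0.85 on LN521 (adjusted p = 0.010). On LN323 the difference was 2.54 ± 0.77 (adjusted p = 0.49). On LN521 the call was lost without day 22 replicate 2 or 3 or without day 32 replicate 1, with adjusted p up to 0.26, and with filterByExpr, limma and DESeq2. The LN523 call was lost with filterByExpr (adjusted p = 0.11), limma on log2(TPM + 0.1) (0.062) and DESeq2 (0.069). From day 2 to day 22, POU4F2 passed the test on all 3 matrices. The share of counts rose 21.9-fold on LN523 (95% exact counting interval 5.74 to 186, 48 against 2 counts), 106-fold on LN323 (28.9 to 881, 187 against 2 counts) and 22.5-fold on LN521 (5.90 to 192, 47 against 2 counts). The intervals leave out the spread between libraries and take each count as a separate event. If both mates of a read pair were counted, they are too narrow for counting error as well. The LN521 call of this step was lost without day 2 replicate 1 or 2 or day 22 replicate 1, and the LN523 call without day 2 replicate 2. Both were also lost with filterByExpr (adjusted p = 0.057 and 0.051), in limma and in the fit on the 6 libraries compared, the LN521 call in DESeq2 as well (adjusted p = 0.058), and the LN323 call in limma on log2(TPM + 1) (adjusted p = 0.11).

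POU4F2 and ATOH7 kept a narrow ratio at day 32. Over the 9 libraries of that day ATOH7 covered a 24.7-fold range, from 24.6 to 607 TPM, while POU4F2 was between 4.97% and 9.28% of the ATOH7 level in TPM (median 6.24%), a 1.87-fold range. At day 22 the percentage ran from 0 to 62.1% (median 6.14%), and the library at 62.1% was LN521 replicate 1, which had the lowest ATOH7 of that day. The ratio is a description over libraries that share lanes across matrices, and it was not compared with the ratios of other genes.

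**Figure D2:**
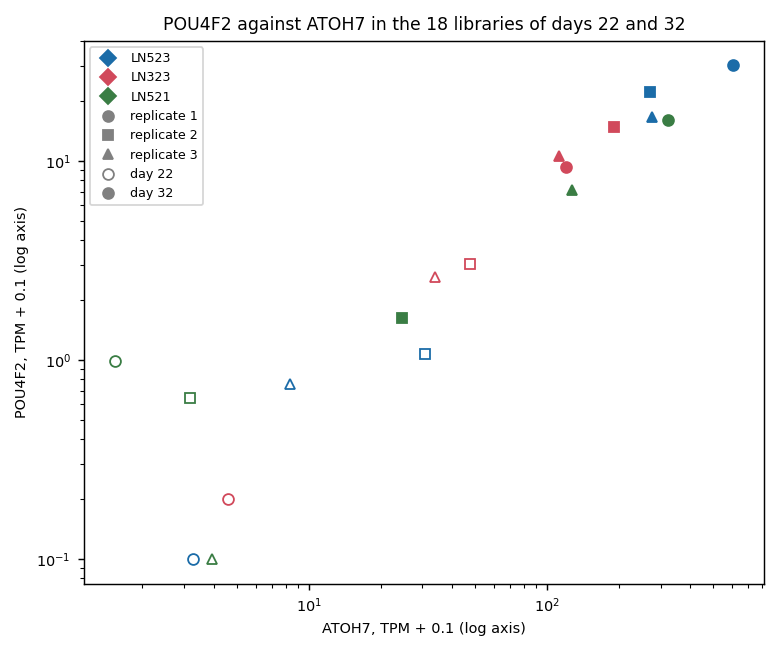
POU4F2 against ATOH7 in the 18 libraries of days 22 (open) and 32 (filled), both as TPM + 0.1 on log axes, with colours for the matrix and symbols for the replicate. The 9 day 32 libraries lie along a line, with POU4F2 between 4.97% and 9.28% of ATOH7, and the day 22 libraries scatter from 0 to 62.1%.

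POU4F1, a POU-domain factor of mature ganglion cells and of sensory neurons, stayed low. It was below 0.8 TPM in 25 of the 27 libraries. The exceptions were LN521 replicate 1 at day 22, with 277 counts and 5.85 TPM, and LN521 replicate 1 at day 32, with 54 counts and 1.25 TPM, and the other 2 libraries of those groups had between 0.048 and 0.25 TPM. No comparison passed the test for POU4F1. The nearest to a call was LN523 against LN521 at day 22, with a log2 fold change of -3.41 ± 0.91 (edgeR adjusted p = 0.053) that was -0.93 without LN521 replicate 1 (adjusted p = 1.00) and passed without LN521 replicate 2 or 3 or LN523 replicate 2. On LN523, POU4F1 had 0.76, 0.31 and 0.53 TPM in replicates 1, 2 and 3 at day 2 and 0.086, 0.27 and 0 TPM at day 22, lower in 3 of 3 lanes and without overlap, and the difference of -2.25 ± 1.10 did not pass (unadjusted p = 0.045, adjusted p = 0.16), although it passed without day 22 replicate 2 (-4.39, adjusted p = 0.010). The day 22 to day 32 difference on LN521 was -2.11 ± 1.00 (adjusted p = 0.76).

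ISL1, a LIM-homeodomain factor of ganglion cells that also marks cholinergic amacrine cells, bipolar cells and motor neurons, was 0.069 to 0.79 TPM at day 2. It had 0.61, 1.62 and 1.27 TPM on LN523, 0, 1.92 and 2.02 TPM on LN323, and 2.17, 5.70 and 0.94 TPM on LN521 in replicates 1, 2 and 3 at day 22. At day 32 it had 2.34, 3.65 and 4.25 TPM on LN523, 0.65, 1.18 and 3.22 TPM on LN323, and 5.58, 4.48 and 0.53 TPM on LN521. All 3 LN523 libraries of day 32 were above those of day 22, by a log2 fold change of 1.64 ± 0.79 that did not pass (adjusted p = 1.00, unadjusted p = 0.043). On LN323 and LN521 the days overlapped, with differences of 0.38 ± 0.78 and 0.32 ± 0.77. The step from day 2 to day 22 on LN521 was 2.20 ± 0.82 (adjusted p = 0.052), the nearest to a call for this gene, and it passed without LN521 day 22 replicate 1 (2.37, adjusted p = 0.047).

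ISL2, the relative of ISL1 that marks a subset of ganglion cells, did not exceed 58 counts in any library. Its level was at most 0.26 TPM at day 2, at most 0.77 TPM at day 22 and 0.34 to 2.80 TPM at day 32. The day 32 libraries were above those of day 22 on LN523 and LN323, where the log2 fold changes were 2.46 ± 1.13 (unadjusted p = 0.034) and 3.20 ± 1.28 (unadjusted p = 0.015), and neither passed after adjustment. No difference between matrices passed for ISL2, and at day 32 the values were 1.38 ± 0.77 for LN523 against LN323, 0.71 ± 0.74 for LN523 against LN521 and -0.68 ± 0.77 for LN323 against LN521.

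EBF1 and EBF3, early B-cell factors that act in the differentiation and axon growth of ganglion cells and of many other neurons, both rose from day 2 to day 22 on LN323 and LN521. On LN523, EBF3 was called in that step and EBF1 from day 22 to day 32, and the timing of the genes was not compared by a test. EBF3 was below 0.72 TPM in every day 2 library. At day 22, replicates 1, 2 and 3 had 8.60, 19.3 and 9.77 TPM on LN523, 6.30, 14.7 and 11.5 TPM on LN323, and 18.0, 3.90 and 7.46 TPM on LN521. Days 2 and 22 did not overlap on any matrix, and the log2 fold changes were 5.94 ± 0.63, 4.89 ± 0.58 and 4.34 ± 0.56 (edgeR adjusted p = 5.5e-11, 1.1e-09 and 1.6e-08). Without LN521 day 22 replicate 1 the LN521 value was 3.50 (adjusted p = 1.6e-07). EBF3 then showed no called change to day 32, when its libraries had 3.63 to 23.8 TPM, and the differences on LN523, LN323 and LN521 were 0.31 ± 0.47, 0.70 ± 0.47 and -0.30 ± 0.47.

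EBF1 was below 0.37 TPM at day 2. At day 22, replicates 1, 2 and 3 had 0.57, 0.92 and 0.26 TPM on LN523, 0.46, 1.34 and 0.85 TPM on LN323, and 7.91, 0.89 and 0.22 TPM on LN521. At day 32 they had 5.42, 4.85 and 4.28 TPM on LN523, 1.497, 6.36 and 3.26 TPM on LN323, and 8.50, 1.09 and 1.09 TPM on LN521. LN523 had the tightest day 32 libraries (4.85 ± 0.57 TPM, SD, n = 3), and LN521 replicate 1 was the highest library at both days.

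On LN523, EBF1 rose from day 22 to day 32 by a log2 fold change of 3.25 ± 0.72 (edgeR adjusted p = 0.015), a call lost without day 22 replicate 1 or 3 or day 32 replicate 3 and, without the replicate block, at an adjusted p of 0.053, as well as with filterByExpr (0.24) and limma. The differences were 2.03 ± 0.68 on LN323 (adjusted p = 0.78) and 0.38 ± 0.65 on LN521 (adjusted p = 1.00). From day 2 to day 22, EBF1 rose by 2.13 ± 0.73 on LN323 (adjusted p = 0.026) and by 3.29 ± 0.75 on LN521 (adjusted p = 0.00066). Without LN521 day 22 replicate 1, the LN521 value was 1.36 with an adjusted p of 0.22, and limma did not call it with a pseudocount of 1 or 0.1 TPM (adjusted p = 0.16 and 0.092). The LN323 call was lost without day 2 replicate 1 or day 22 replicate 2 or 3, with adjusted p up to 0.18, and also with filterByExpr (0.065), without the replicate block (0.052) and in limma (0.53 and 0.16).

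RBPMS, an RNA-binding protein used as a marker of all ganglion cells in the mature retina and present in many other cells, moved the opposite way. The 9 day 2 libraries had 22.9 to 49.0 TPM and those of days 22 and 32 had 5.30 to 12.8 TPM, with no overlap. From day 2 to day 22 it fell by 1.80 ± 0.24, 2.00 ± 0.24 and 1.95 ± 0.24 on the log2 scale on LN523, LN323 and LN521 (edgeR adjusted p = 3.5e-08, 2.7e-09 and 6.7e-09), lower in 3 of 3 lanes on each. The differences from day 22 to day 32 were -0.03 ± 0.24, -0.01 ± 0.24 and -0.39 ± 0.24, and none passed.

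SNCG, the gamma-synuclein of ganglion cell axons and of peripheral sensory neurons, was already 15.4 to 27.9 TPM at day 2. At day 22, replicates 1, 2 and 3 had 7.73, 105 and 19.8 TPM on LN523, 21.6, 96.8 and 44.8 TPM on LN323, and 229, 110 and 21.3 TPM on LN521. At day 32 they had 104, 179 and 42.6 TPM on LN523, 30.6, 142 and 80.3 TPM on LN323, and 241, 128 and 71.5 TPM on LN521. The replicates of one group spread up to 13.5-fold at day 22, and days 22 and 32 overlapped on every matrix.

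SNCG passed the test in one time step, from day 2 to day 22 on LN521, with a log2 fold change of 2.34 ± 0.56 (adjusted p = 0.0012) that was 1.22 with an adjusted p of 0.099 without LN521 day 22 replicate 1. In limma the SNCG call was lost at adjusted p of 0.068 and 0.062 with pseudocounts of 1 and 0.1 TPM. The differences from day 22 to day 32 were 1.498 ± 0.53 on LN523 (adjusted p = 0.54), 0.64 ± 0.52 on LN323 and 0.34 ± 0.52 on LN521.

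Ordered by mean TPM over the 9 groups, neighbouring groups mostly could not be separated by their libraries. For ATOH7 the gap without overlap lay between the lowest day 32 group (LN323, 141 ± 43.3 TPM, SD, n = 3) and LN323 at day 22 (28.6 ± 22.0 TPM), although LN521 replicate 2 at day 32 fell below the highest LN323 library of day 22. For POU4F2 it lay between LN523 at day 32 (22.9 ± 6.88 TPM) and LN323 at day 32 (11.5 ± 2.87 TPM). For EBF3 the gap lay between days 2 and 32 of LN521, and for RBPMS there was 1 between LN521 and LN323 at day 2 and 1 between days 2 and 22. For the other 5 members all 8 pairs of neighbours overlapped.

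Counted over the 9 members, the step from day 2 to day 22 passed for 4 on LN523, 5 on LN323 and 5 on LN521, against 21.7%, 22.7% and 18.9% of the 44852 genes tested. EBF3, POU4F2 and RBPMS were called on all 3 matrices. The step from day 22 to day 32 passed for 3 members on LN523 (ATOH7, POU4F2 and EBF1), 0 on LN323 and 2 on LN521 (ATOH7 and POU4F2), against 0.381%, 0.0424% and 0.268% of the genes. The median log2 fold change of the members in this step was 1.64 on LN523, 0.70 on LN323 and 0.34 on LN521, and that of all genes was 0.00 on each. On LN323, 4 members had an unadjusted p under 0.05 and DESeq2 called 0 members. With filterByExpr, 0 members were called on LN523 and 1 on LN521. With the 6 libraries of a matrix fitted alone, 3 were called on LN323 (ATOH7, POU4F2 and EBF1), against 0.962% of the 36372 genes of that fit.

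**Figure D3:**
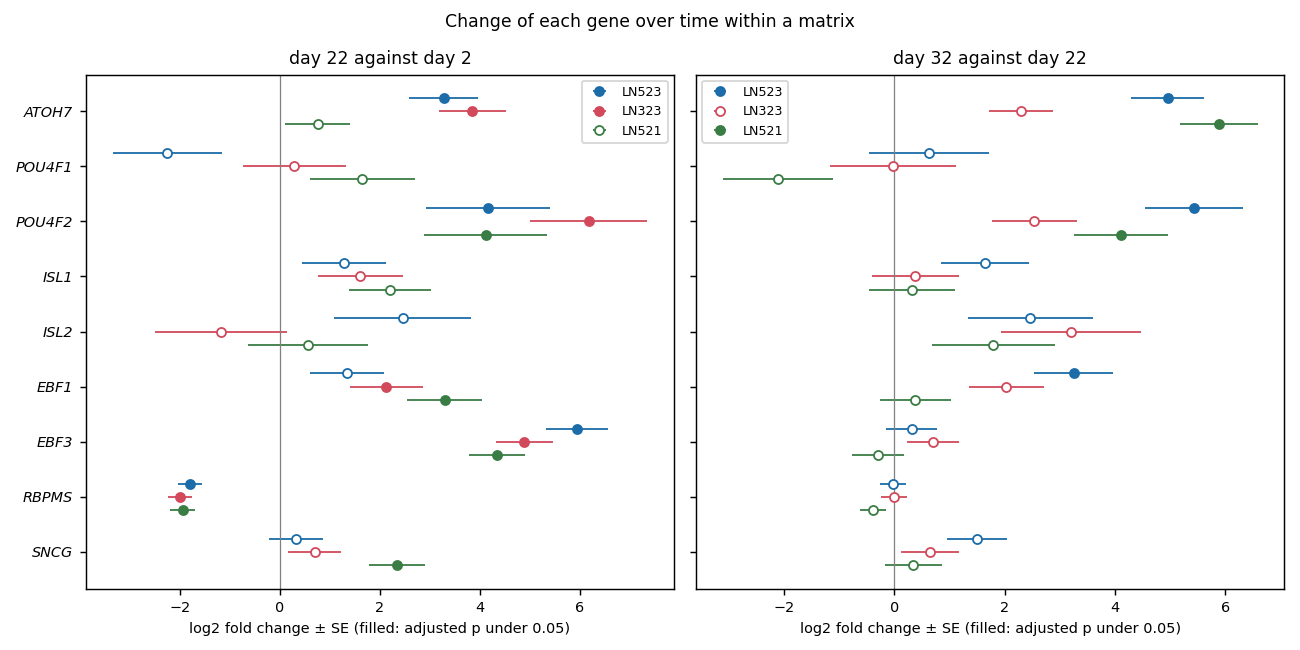
Log2 fold change ± SE of each gene (rows) from day 2 to day 22 and from day 22 to day 32 within LN523, LN323 and LN521, with filled points for an adjusted p under 0.05. EBF3 and POU4F2 are filled and to the right in all 3 matrices in the earlier step, RBPMS is filled and to the left, and ATOH7 is filled in the later step on LN523 (4.96) and LN521 (5.88) but not on LN323 (2.29).

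Whether the last step differed between matrices was tested as a difference of differences. No member passed, nor did any gene, 0% of the 44852 genes between LN523 and LN323, 0% for LN523 with LN521 and 0% for LN323 with LN521. DESeq2 also called 0 members in these 3 comparisons (with 14, 15 and 9 genes), and 2, 1 and 1 members had an unadjusted p under 0.05, against 901, 2142 and 1540 genes. ATOH7 had steps larger by 2.67 ± 0.80 on LN523 than on LN323 (unadjusted p = 0.0017, adjusted p = 1.00), and the LN323 step minus that of LN521 was -3.59 ± 0.83 (unadjusted p = 7.0e-05, adjusted p = 0.93). For POU4F2 the LN523 step exceeded that of LN323 by 2.90 ± 1.07 (unadjusted p = 0.0093), and for EBF1 it exceeded that of LN521 by 2.87 ± 0.95 (unadjusted p = 0.0037), a value that was 0.75 without LN521 day 22 replicate 1 (unadjusted p = 0.41) and 4.10 without LN521 day 32 replicate 1. The calls on LN523 and LN521 and their absence on LN323 are therefore not shown to differ.

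Matrices were also compared within each day, on the 9 libraries of the day. At day 2, no member passed between LN523 and LN323 (0.233% of 38650 genes), LN523 and LN521 (0.624%) or LN323 and LN521 (2.5%), with 0, 1 and 0 members at an unadjusted p under 0.05 and 0 by DESeq2. At day 22, no member passed between LN523 and LN323 (0.013% of 38609 genes), with 4 at an unadjusted p under 0.05 and 0 by DESeq2. ATOH7 and SNCG passed between LN523 and LN521 (0.572%), and ATOH7 between LN323 and LN521 (0.616%).

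ATOH7 was lower on LN521 than on the other matrices at day 22. It was higher on LN323 by a log2 fold change of 2.96 ± 0.41 (edgeR adjusted p = 4.5e-07), with no overlap of libraries, and higher on LN523 by 1.87 ± 0.40 (adjusted p = 0.0044), where the lowest LN523 library of 3.16 TPM lay among those of LN521. Both calls were lost without the replicate block (adjusted p = 0.41 and 0.90) with filterByExpr (0.91 and 0.94) and in limma, and that with LN523 also in the fit on the 6 libraries compared (1.00). Without LN521 replicate 1 the differences were 3.42 and 2.37 and both passed, while without LN323 replicate 3 the former was lost (adjusted p = 0.085), and without LN523 replicate 2 or 3 or LN521 replicate 2 the latter was lost (adjusted p up to 0.12). SNCG was lower on LN523 than on LN521 by 1.90 ± 0.40 on the log2 scale (adjusted p = 0.0039), but the call was lost without LN521 replicate 1 (log2 fold change -0.26), LN523 replicate 1 (-0.79) or LN523 replicate 3, and it held in RLE normalization but in none of the other fits on all the libraries of the groups.

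At day 32, 0 members passed between LN523 and LN323 (0% of 39377 genes), LN523 and LN521 (0.0609%) and LN323 and LN521 (0.117%), with 1, 3 and 1 members at an unadjusted p under 0.05 and 0 by DESeq2. Between LN523 and LN323, 747 genes had an unadjusted p under 0.05 and DESeq2 called 823 genes. All 3 LN523 libraries were above all 3 LN323 libraries for ATOH7, by 1.23 ± 0.41 (unadjusted p = 0.0068, adjusted p = 1.00), and for POU4F2, by 0.92 ± 0.45 (adjusted p = 1.00). Between LN523 and LN521 the differences were 1.52 ± 0.42 for ATOH7 (adjusted p = 0.25) and 1.70 ± 0.47 for POU4F2 (adjusted p = 0.25). Fitted on the 6 libraries of the pair alone, ATOH7, POU4F2 and ISL1 passed between LN523 and LN323, and ATOH7 and POU4F2 between LN523 and LN521. These fits called 2.82% of 36703 genes for the former pair and 0.218% of 37630 genes for the latter.

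LN521 replicate 1 decided the day 32 comparisons with LN521. Without that library, ATOH7, POU4F2, EBF1 and EBF3 were all higher on LN523 than on LN521, by 2.25, 2.45, 2.38 and 1.78, and higher on LN323 than on LN521, by 0.91, 1.44, 1.78 and 2.02, with adjusted p of 1.3e-05 or less in each. This fit compares 3 libraries with 2, and it called 1907 and 2143 genes, against 24 and 46 with all 9 libraries. For ATOH7 the LN323 libraries (120, 191 and 113 TPM in replicates 1, 2 and 3) still overlapped those of LN521 (24.6 and 128 TPM in replicates 2 and 3). In lane 3, ATOH7 was lower on LN323 than on LN521.

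**Figure D4:**
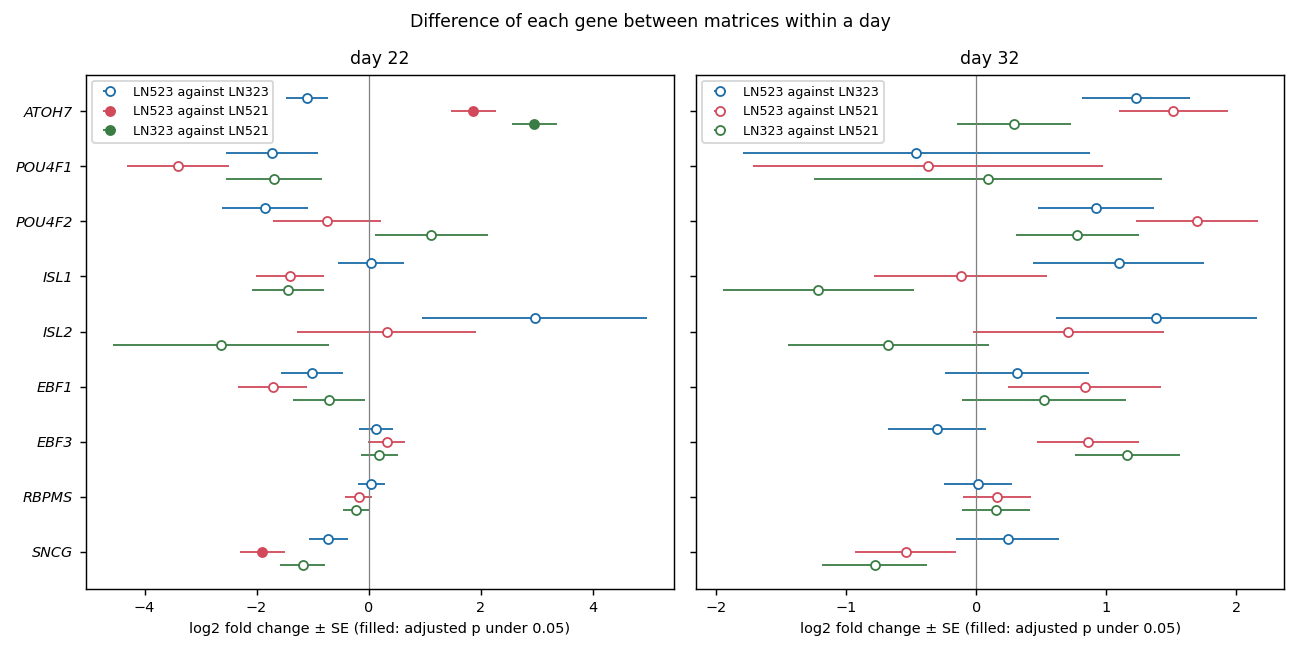
Log2 fold change ± SE of each gene (rows) between matrices at day 22 and day 32, with filled points for an adjusted p under 0.05. The filled points are ATOH7 (1.87 and 2.96, higher than on LN521) and SNCG (-1.90) at day 22, and day 32 has 0 filled points.

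Other genes of the ganglion cell pathway were called in the same step on LN523 in the main fit. That fit called 0.381% of all genes in this step on LN523, 0.0424% on LN323 and 0.268% on LN521. With filterByExpr, 0 genes were called in this step on LN523, and limma on log2(TPM + 0.1) called 3. The LN523 calls of this step given here and for the lists below were therefore all lost with filterByExpr, and at most 3 could hold in that limma fit. Of 24 further ganglion cell transcription factors, 6 were called higher and 0 lower from day 22 to day 32 on LN523, against 0 and 0 on LN323 and on LN521, with list medians of 1.05, 0.59 and 0.21 on the log2 scale beside 0.00 for all genes. Without LN521 day 22 replicate 1, 3 were called higher on LN521 in this step, with a median of 0.74. Without LN521 day 32 replicate 1 instead, 0 were called, with a median of -0.49. In the step before, from day 2 to day 22, 7 had been called higher and 3 lower on LN523, 8 and 1 on LN323, and 11 and 2 on LN521, or 6 and 3 on LN521 without its day 22 replicate 1. NHLH1, a neuronal basic helix-loop-helix factor, rose from 0.70 ± 0.49 to 13.4 ± 6.98 TPM (SD, n = 3; log2 fold change 4.21 ± 0.76, edgeR adjusted p = 0.0014). ONECUT1, a factor of horizontal and ganglion cell genesis, rose from 0.49 ± 0.48 to 8.32 ± 5.20 TPM (4.15 ± 0.98, adjusted p = 0.033). MYT1L, a neuronal zinc finger factor, had 0 counts in the LN523 libraries of day 22 and 20 to 24 in those of day 32, at least 19.6-fold higher when 3 counts over the group are taken as the floor. That floor takes each count as a separate event, and the fold would be lower if both mates of a read pair were counted. MYT1L had been 0.25 ± 0.095 TPM on LN523 at day 2 and was 0.15 ± 0.022 TPM at day 32, and the fall from day 2 to day 22 was also called (adjusted p = 9.2e-05). At day 22, MYT1 and MYT1L were called lower on LN523 than on LN521, and the highest library of both genes on LN521 was replicate 1 (11.6 and 0.94 TPM).

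Of 24 ganglion cell differentiation and axon genes, 10 were called higher and 0 lower in this step on LN523, 1 and 0 on LN323, and 0 and 0 on LN521, and the medians were 1.75, 1.03 and 0.26. Without LN521 day 22 replicate 1, 8 were called higher on LN521, with a median of 1.25. Without LN521 day 32 replicate 1 instead, 0 were called, with a median of -0.32. The rises on LN523 followed a fall there, where 9 of the 24 were called lower and 6 higher from day 2 to day 22, GAP43, NEFL and ELAVL3 by -2.06, -3.51 and -2.64 on the log2 scale. The list summed to between 1271 and 1473 TPM on LN523 at day 2, between 402 and 599 TPM at day 22 and between 1012 and 1260 TPM at day 32, so the day 32 libraries were below those of the undifferentiated cells. From day 2 to day 22 on LN521, 10 were called higher and 3 lower, or 5 and 5 without day 22 replicate 1, whose list sum of 1725 TPM was the highest on LN521 at day 22. At day 22, 8 were called lower and 1 higher on LN523 than on LN521, or 3 and 1 without that library. CNTN2, an axonal adhesion molecule, rose from 3.70 ± 3.68 to 87.4 ± 33.5 TPM on LN523 (4.45 ± 0.69, adjusted p = 0.00014). The neuronal RNA-binding proteins ELAVL3 and ELAVL4 rose by 4.52 ± 0.78 and 4.53 ± 0.86. The others called were GAP43, NEFL, PRPH, STMN2, DCX, ROBO2 and TAGLN3, most of which are made by many kinds of young neuron. SLC17A6, the vesicular glutamate transporter of ganglion cells, named here after its values were seen, had at most 1.73 TPM in any library.

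Of 14 retinal progenitor and Notch pathway genes, 12 were called higher and 0 lower from day 2 to day 22 on each matrix. Whether they changed before or after ATOH7 was not tested. From day 22 to day 32, 4 were called higher on LN523, 0 on LN323 and 2 on LN521 (0 without LN521 day 32 replicate 1), and 0 were lower. HES6, a helix-loop-helix factor that opposes Notch effectors, rose on LN523 from 30.2 ± 15.5 to 454 ± 277 TPM (3.96 ± 0.50, adjusted p = 3.7e-06), the Notch ligand DLL4 from 4.73 ± 2.20 to 83.4 ± 34.3 TPM (3.98 ± 0.57, adjusted p = 4.0e-05) and the proneural factor NEUROG2 from 0.99 ± 0.67 to 20.1 ± 11.8 TPM (4.06 ± 0.81, adjusted p = 0.0038).

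The genes most like a member were ranked by Pearson's r of log2 CPM over the 18 libraries of days 22 and 32, among 13141 genes whose mean reached 5 CPM, normalised counts scaled to 1000000 per library, in some group of those days. For ATOH7 they were THRB (r = 0.94), CERKL (0.93), FGF1 (0.92), RORB (0.92) and DLL4 (0.92). For POU4F2 they were NEUROD1 (r = 0.93), NEUROD4 (0.93), CNTN2 (0.92), KCNE4 (0.91) and RORB (0.91). For ISL1 the values were lower, with PLEKHH3 (r = 0.85), DOP1B (0.80), RPS6KL1 (0.78), DRD2 (0.78) and CROCCP2 (0.74). These are descriptions, and the 18 libraries share the step between the days, the lanes and the sequencing depth.

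Some markers of photoreceptor precursors were called in the step in which ATOH7 and POU4F2 rose. Of 7 such genes, 3 were called higher from day 22 to day 32 on LN523 (RBP3, PRDM1 and NEUROD1), 0 on LN323 and 3 on LN521 (1 without LN521 day 32 replicate 1), and 0 were lower. CRX, OTX2, RCVRN and NRL, the others listed, were not called in this step on LN523. At day 2 the list summed to between 85.9 and 151 TPM on LN523, 67.2 and 122 TPM on LN323, and 97.3 and 189 TPM on LN521. From day 22 to day 32 the summed level went from between 19.5 and 64.2 TPM to between 72.1 and 264 TPM on LN523, from between 26.9 and 39.3 to between 28.2 and 75.3 TPM on LN323, and from between 49.9 and 88.3 to between 64.2 and 246 TPM on LN521. On each matrix the sums after this step overlapped those of day 2. In the same step on LN523, 1 of 7 markers of cholinergic amacrine cells and motor neurons (OLIG2, higher), 1 of 6 of surface ectoderm (KRT17, higher) and 1 of 7 of pluripotent cells (LIN28A, lower) were called, and 0 of the lists for horizontal and amacrine cells, placode or neural crest sensory neurons, neural crest and Schwann lineage, mesenchyme and smooth muscle, and pigment epithelium. The part of these cell types in the results for the members was not tested.

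The sensory neuron markers NEUROG1 and TLX3, picked from their list after its values were seen, were high together with POU4F1, EBF1 and SNCG in LN521 replicate 1. The 11 placode or neural crest sensory neuron genes summed to 14.5, 16.4 and 52.0 TPM (lowest, median and highest library) on LN521 at day 22, against 11.5 to 21.2 TPM on LN523 and 10.7 to 21.5 TPM on LN323. The highest sum was that of replicate 1, in which TLX3, a homeobox factor of peripheral sensory neurons, had 14.3 TPM. NEUROG1 and TLX3 held much of that sum, and the list was not summed without them, so the sum does not show that the rest of the list was higher in that library. At day 32 the sums were 13.2, 15.7 and 56.9 TPM on LN521, 17.0 to 28.5 TPM on LN323 and 26.9 to 30.5 TPM on LN523. On LN523 the sums of days 22 and 32 did not overlap, in the step in which EBF1 was called there, and 0 of the 11 genes were called in it. The LN523 sums of the photoreceptor precursors, the ganglion cell transcription factors and the axon genes did not overlap in that step either. SLC5A7, the choline transporter, is from the list for cholinergic amacrine cells and motor neurons. It had 12.0 TPM in LN521 replicate 1 of day 22 and 9.29 TPM in LN521 replicate 1 of day 32, against at most 0.86 TPM in all others. The highest sums of that whole list at day 22 were 40.6 TPM on LN521, 37.5 TPM on LN523 and 32.9 TPM on LN323. At day 32 they were 44.9 TPM on LN521, 55.5 TPM on LN523 and 41.4 TPM on LN323. At day 22, NEUROG1 was called lower on LN523 than on LN521, and NEUROG1 and TLX3 lower on LN323 than on LN521. The part of sensory neurons in the levels of POU4F1, EBF1 and SNCG was not tested.

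**Figure D5:**
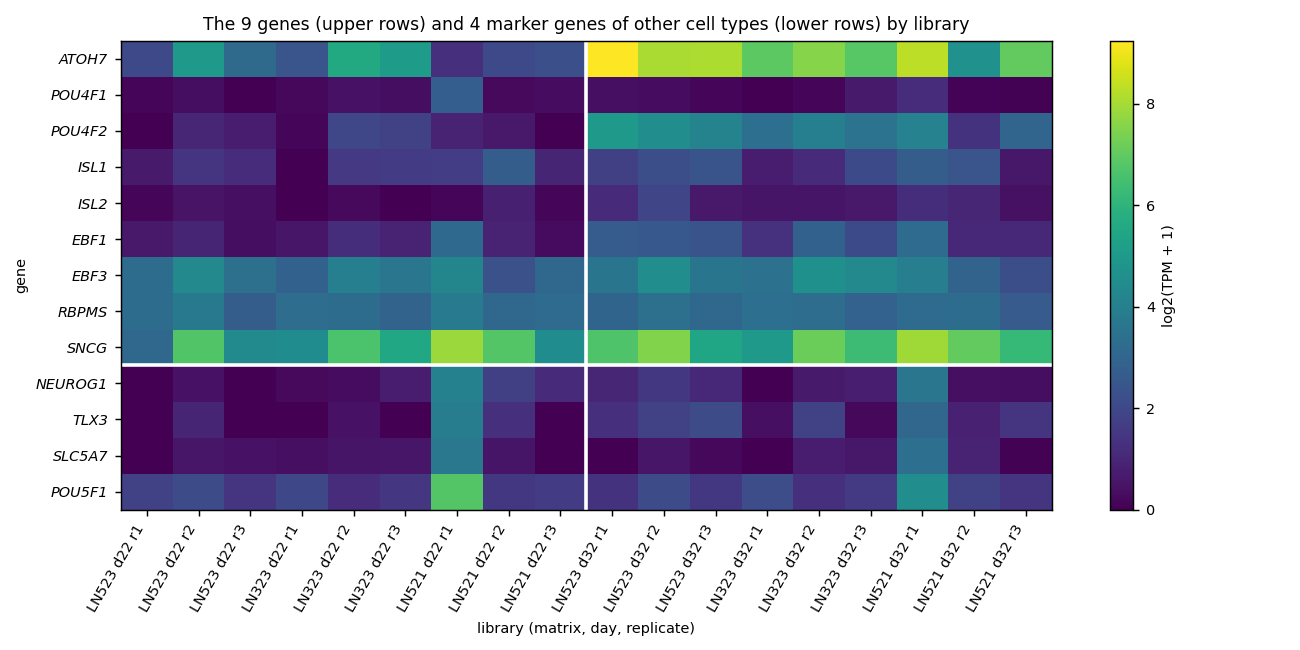
Level as log2(TPM + 1) (colour) of the 9 genes and of the marker genes NEUROG1, TLX3, SLC5A7 and POU5F1 (rows) in the 18 libraries of days 22 and 32 (columns, named by matrix, day d and replicate r). The LN521 replicate 1 column is bright in the marker rows at both days, with NEUROG1 at 15.5 and 11.3 TPM, and at day 22 it also holds the highest POU4F1.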

How the data were processed

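Total RNA from H1 cells was sequenced by the authors as 150 bp pairs after removal of ribosomal RNA, trimmed with cutadapt, aligned to hg38 with STAR 2.5.2b and counted on genes with featureCounts 1.5.1. Ribosomal and mitochondrial genes were removed by the authors, who deposited rounded counts without normalization, and TPM values made from the same counts with 1 fixed length per gene. Of the non-zero counts, 68.8% were even, as when both mates are counted.

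Counts were tested with edgeR 4.0.16 in R 4.3.3 (quasi-likelihood, TMM, more than 1 count in sum, Benjamini-Hochberg adjusted p under 0.05), with group and sequencing lane as terms. Time steps used all 27 libraries, and matrix pairs the 9 libraries of the day. The SE was the size of the log2 fold change divided by the square root of F. The biological coefficient of variation was 45.1%. The replicate number equals the sequencing lane in the labels and is a block, as in the model of the study. Same-lane libraries deviated together at days 22 and 32 between LN523 and LN323 (mean r = 0.57 and 0.66) and less between the other pairs (0.040 to 0.19), and at day 2 the mean r was -0.35 for LN523 with LN323, 0.16 for LN523 with LN521 and -0.097 for LN323 with LN521. Alternatives were DESeq2 1.42.0, limma 3.58.1 on log2(TPM + 1) and log2(TPM + 0.1), RLE normalization, filterByExpr, other sets of libraries, no replicate block, and each library left out. The scripts were tested on simulated data. The sample table held no measurements and was not used.

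The members and gene lists were chosen with earlier results of these data known. From each pathway list, up to 3 genes with the largest rise and up to 3 with the largest fall from day 22 to day 32 on LN523 were named among those past the threshold whose mean reached 1 CPM in any of the 9 groups (for MYT1L not in the compared ones), and for ATOH7, POU4F2 and ISL1 the 5 genes with the highest r. Names of other called genes of a list, and of marker genes, were taken after their values were seen. GENCODE 44 gave loci and 43052 of 44852 IDs had a symbol. SOX10 was not analysed here. A further gene of the sensory neuron list is not reported here and was left out of its sums.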

Additional observations from a re-analysis of the deposited data

How the results depend on the processing

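In the main fits 22 member calls were made over the 18 comparisons, and no call changed direction under any alternative or with any 1 library left out. RLE normalization kept 22 of 22, DESeq2 18, fits on only the 6 libraries compared 18, fits without the replicate block 17, filterByExpr 12, limma on log2(TPM + 1) 11 and on log2(TPM + 0.1) 10, all 27 libraries 1 of 3, and leaving out 1 library kept 110 of 132. The cause of the lost calls was not tested. From day 22 to 32 on LN523 the members called, 3 in the main fit, were 0 with filterByExpr and 0 with limma on log2(TPM + 0.1), and the genes called, 171 in the main fit, were 0 and 3. On LN521 the step had 1 member instead of 2 with filterByExpr, with limma at either pseudocount and with DESeq2, and on LN323 it had 3 instead of 0 in the fit on the 6 libraries (0.962% of genes). From day 2 to 22, limma on log2(TPM + 1) called 3 instead of 5 on LN323, and limma called 2 instead of 5 on LN521 at either pseudocount. At day 22, LN523 against LN521 had 2 members in the main fit, 0 with filterByExpr, limma at either pseudocount, the 6 libraries compared and all 27 libraries, and 1 with DESeq2, LN323 against LN521 had 0 instead of 1 with filterByExpr and limma, and LN523 against LN323 had 2 instead of 0 in the fit on the 6 libraries (0.269% of genes). At day 32 that fit called 3 members instead of 0 for LN523 against LN323 (2.82% of genes) and 2 instead of 0 for LN523 against LN521 (0.218%).

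Without the replicate block, which pairs libraries by lane, both day 22 comparisons with LN521 had 0 members instead of 2 and 1, and the count of members called changed by over 1.5 times in no other comparison. Among single calls, the block also decided EBF1 from day 2 to 22 on LN323 (adjusted p = 0.052 without it) and from day 22 to 32 on LN523 (0.053).

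With each library left out in turn, the members called ranged from 3 to 6 for the day 2 to 22 step on LN521 (3 without day 22 replicate 1), from 1 to 2 for the day 22 to 32 step on LN521, from 0 to 1 for that step on LN323 against LN521 (1 without LN521 day 32 replicate 2), from 0 to 2 for LN523 against LN323 at day 22 (2 without LN523 replicate 2), from 0 to 4 for LN523 against LN521 at day 22 (0 without LN523 replicate 3, 4 without LN521 replicate 3), from 0 to 3 for LN323 against LN521 at day 22 (0 without LN323 replicate 3, 3 without LN521 replicate 1), and from 0 to 4 at day 32 for both pairs with LN521 (4 without LN521 replicate 1). The low counts of POU4F2 at day 2 and of POU4F1, ISL1 and ISL2 throughout limit what can be seen of these members.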
